A study of Mus musculus with 8 samples.

Results

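The mRNAs of 6 genes that make microRNAs (miRNAs) were followed through the first steps of neural differentiation of mouse embryonic stem (ES) cells, namely Drosha, Dgcr8, Xpo5, Dicer1, Tarbp2 and Prkra. They were chosen by gene name among the non-control probes of the array, which gave 7 probes (2 for Drosha and 1 for each of the others) of 55681 probes and 6 of 36163 gene names. Total RNA and the RNA that came down with an anti-pan Ago antibody (clone 2A8) from the cytosolic fraction, called Ago–RNA, were each hybridized to a one-color Agilent array with a single dye. The cells were of the line E14Tg2A (strain 129/Ola). They were taken at 0 days of in vitro differentiation (DIV) in serum and LIF as ES cells, at 2 DIV as floating epiblast-like aggregates (ELA) in chemically defined minimal medium, at 6 DIV as adherent neural progenitor cells (NPC), and at 10 DIV as neural precursors (NPC/Neu).

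Each of the 8 conditions, 4 stages by 2 kinds of RNA, was measured on 1 array, onto which RNA of 3 independent experiments had been pooled. All the arrays came from 1 slide, and no array of a control immunoprecipitation was used here. No condition therefore has a spread between replicates, and no change between stages could be tested. The 1 test possible sets Ago–RNA against total RNA over all 4 stages and is given after the single stages. For a single stage or transition, the error available is the noise between spots, taken from 232 probes that were printed in 10 spots on every array. Its SD was 0.21 to 0.23 (log2) for a difference of 2 arrays and 0.30 to 0.31 for a difference of 2 such differences, and it covers neither the cultures nor the immunoprecipitation.

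Checked against the labels, some stage markers changed sharply and others did not. In total RNA, the ES marker Zfp42 (Rex1) went from a log2 signal of 15.97 in ES to 12.36 in ELA, the epiblast marker Fgf5 from 11.96 to 14.78, and Pou5f1 (Oct4) from 14.76 in ELA to 7.98 in NPC. The neuronal tubulin Tubb3 was at 12.95 in ES and at 17.01 in NPC/Neu. From ELA to NPC, the progenitor marker Nes rose from 13.86 to 14.86. Sox1 rose from 8.42 to 12.06 and Pax6 from 8.13 to 11.11 over the same step, each at its brighter probe. Sox2 was at 13.75 in ES and 13.87 in NPC/Neu, and Otx2 at 15.53 in ES and 16.06 in ELA. Esrrb, at 15.19 in ES, rose from 9.59 in NPC to 11.55 in NPC/Neu, and Zfp42 from 8.71 to 9.76. The probes for Nanog disagreed (15.30 in ES and 9.95 in NPC/Neu at one, 9.73 and 11.04 at the other). Of 6 markers of other lineages, 4 or 5 had a probe above background on each total RNA array, and their summed signal fell over the 4 stages, from 64130 to 38350, 11220 and 7104. That sum was mostly Krt8 in ES, an epithelial keratin that went from 15.44 in ES to 11.09 in NPC/Neu at its brighter probe. The floor plate and endoderm gene Foxa2 rose from 7.01 to 11.24 at its brighter probe, and T from 7.19 to 9.31. Gata4, Gata6 and Sox17 were at 7.64, 6.65 and 7.04 in ES. In NPC/Neu they were at 6.98, 6.78 and 7.30, with Sox17 at its brighter probe. Fewer cells of one type and less RNA per cell cannot be told apart in such bulk samples, and the part of these other cells in the results below was not tested. Of the 8 arrays, that of ES Ago–RNA was the brightest, with a raw signal of 3039 at its 75th percentile against 1060 to 1774 on the others. No spot was saturated.

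miRNAs are cut from longer transcripts in steps. In the nucleus, the Microprocessor, made of the RNase III enzyme Drosha and the double-stranded RNA (dsRNA)-binding protein Dgcr8, releases a hairpin, which exportin-5 (Xpo5) carries to the cytoplasm together with Ran-GTP. There the RNase III enzyme Dicer1 removes the loop, helped by its dsRNA-binding partners Tarbp2 (TRBP) and Prkra (PACT), and a strand of the duplex is handed to an Argonaute (Ago) protein, which then binds mRNAs that pair with the first bases of that strand. ES cells without Dicer1 or Dgcr8 are known to survive but to differentiate poorly. The mRNAs of these same genes can themselves be found with Ago, which is what the arrays measured.

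All the probes lay near the 3′ end of their mRNA, where array designs place them, and none matched a transcript of another gene (mm9, GENCODE vM1). Drosha lies on the plus strand of chr15:12754570-12865045. Its coding probe (chr15:12864767-12864826) and its 3′ UTR probe (chr15:12864964-12865023) are both in the last exon, 35 of 35. The coding probe matched all 4 annotated Drosha transcripts, whereas the 3′ UTR probe matched 2 of them. The Xpo5 probe (chr17:46378755-46378814, plus strand) is coding as well and lies in exon 31 of 32. Dgcr8 (chr16:18254226-18254285, minus strand), Dicer1 (chr12:105926064-105926123, minus strand), Tarbp2 (chr15:102353974-102354033, plus strand) and Prkra (chr2:76468199-76468258, minus strand) were each read by a probe in the 3′ UTR of their last exon. The Tarbp2 probe matched 4 of the gene's 8 transcripts and the Dicer1 probe 3 of 4. The 2 coding probes are shown here, in the direction of the mRNA, because they are the stretches of mRNA that gave the signal at Drosha and Xpo5, whose Ago enrichment is described below.

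Drosha, coding probe: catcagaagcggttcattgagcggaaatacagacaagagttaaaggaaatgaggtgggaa
Xpo5, coding probe: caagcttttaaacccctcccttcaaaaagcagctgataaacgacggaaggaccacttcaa

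Ago is led to an mRNA by the miRNA it carries, so the mature sequences of 5 miRNAs are given as the words to look for in the members' 3′ UTRs. miR-294 and miR-302b belong to families typical of ES and epiblast cells, let-7a is typical of differentiated cells, miR-9 is typical of neural cells, and the miR-103 family is known to act on Dicer1 in other cells. Capitals mark the seed, bases 2 to 8 (RefSeq, GRCm38.p6). miR-294 and miR-302b share theirs.

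miR-294-3p: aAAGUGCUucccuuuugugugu
miR-302b-3p: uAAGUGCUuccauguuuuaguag
let-7a-5p: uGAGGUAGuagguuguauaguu
miR-103-3p: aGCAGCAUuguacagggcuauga
miR-9-5p: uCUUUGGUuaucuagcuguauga

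The 7 bases complementary to each seed were searched on the mRNA strand of the 3′ UTRs of the longest coding transcripts. AGCACTT, the word for miR-294 and miR-302b, was in none of the 6 members' 3′ UTRs, and 11.8% of all 19915 3′ UTRs held it. Among 3′ UTRs within 20% of a member's length, it was in 35.7% for Dicer1, 17.5% for Dgcr8, 4.99% for Prkra, 3.52% for Tarbp2, 1.75% for Drosha and 0.0% for Xpo5. The word for let-7a, CTACCTC, was found once, in Tarbp2. The word for miR-103, ATGCTGC, was found once each in Dgcr8, Dicer1 and Tarbp2, and that for miR-9, ACCAAAG, once in Dicer1. These 5 sites are shown with 11 bases on each side, the word in capitals.

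Tarbp2, let-7a (chr15:102353864-102353892, plus strand): aggtgccatctCTACCTCtgacacagcct
Tarbp2, miR-103 (chr15:102354004-102354032, plus strand): gtcctgaataaATGCTGCtctttggcttc
Dgcr8, miR-103 (chr16:18254127-18254155, minus strand): tatgtacagtcATGCTGCaagggtgggga
Dicer1, miR-103 (chr12:105928369-105928397, minus strand): tgcttcatgtaATGCTGCacttaggttca
Dicer1, miR-9 (chr12:105928812-105928840, minus strand): ttgccagagtcACCAAAGctgtgctctct

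The members' 3′ UTRs differ widely in length, from 28 bases in Xpo5 and 168 in Drosha to 334 in Tarbp2, 513 in Prkra, 1565 in Dgcr8 and 3851 in Dicer1. Among 3′ UTRs of like length, 27.0% held the miR-103 word and 30.7% the miR-9 word for Dicer1, 11.7% held the miR-103 word for Dgcr8, and 2.86% and 3.41% held the let-7a and miR-103 words for Tarbp2. A matching word is a description of the sequence and no measured site. Xpo5 and Drosha, with the shortest 3′ UTRs, held none of the 4 words, which were rare at such lengths (0.0% to 0.488% for Xpo5 and 0.877% to 1.75% for Drosha).

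The first question is how much of each mRNA the cells held at each stage. Values are log2 signals after background correction and quantile normalization over the 8 arrays, so that each gives the place of an mRNA among all RNA of its array, and signals of different probes are not set against each other. Every member probe was well above background on all 8 arrays.

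Drosha, which makes the first cut, had a total RNA signal of 14.83 in ES, 14.72 in ELA and 14.40 in both NPC and NPC/Neu at its coding probe. At its 3′ UTR probe the same stages gave 14.76, 14.42, 14.29 and 14.23. Both probes were highest in ES and lowest in NPC/Neu, with a total fall of 0.44 and 0.53, and no single step was larger than 0.35. Dgcr8, its partner, stood at 12.44 in ES and 12.36 in ELA, was lowest at 11.58 in NPC and came back to 12.10 in NPC/Neu. The subunits of the Microprocessor thus differed at the later steps, where Dgcr8 fell by 0.78 from ELA to NPC and gained 0.52 from NPC to NPC/Neu, while Drosha changed by at most 0.31 at either probe.

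Xpo5, the carrier of the hairpins, was the member whose total RNA signal fell most. Its signal was 12.66 in ES and 12.76 in ELA, which differ by less than the noise between spots, then 11.70 in NPC and 10.75 in NPC/Neu. The 2 later steps took away 1.05 and 0.95, and NPC/Neu cells had 3.75-fold less Xpo5 mRNA signal than ES cells (-1.91 on the log2 scale).

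Dicer1 went the other way, from 12.22 in ES to 12.51 in ELA, 13.16 in NPC, then to 12.92 in NPC/Neu. Its highest stage was NPC, 1.93-fold above ES. The cutting enzyme of the cytoplasm therefore had its lowest signal in ES, the stage at which the nuclear enzyme Drosha had its highest.

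The partners of Dicer1 parted. Tarbp2 was at 15.73 in ES, 15.48 in ELA, 15.03 in NPC, then 15.18 in NPC/Neu, a fall of 0.55 from the first to the last stage. Prkra, also known as an activator of the kinase PKR, was at 10.92 in ES, 12.23 in ELA and 13.06 in NPC/Neu. It was the member with the largest change, 2.49-fold from ES to ELA (1.32 on the log2 scale) and 4.43-fold from ES to NPC/Neu (2.15). No value is given for its NPC total RNA, because the scanner software marked that spot as irregular, with a raw signal of 380621 against 1597 to 7404 on the other total RNA arrays. The NPC Ago–RNA spot was regular and read 12.84, above the 11.87 of ELA and close to the 12.69 of NPC/Neu.

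**Figure D1:**
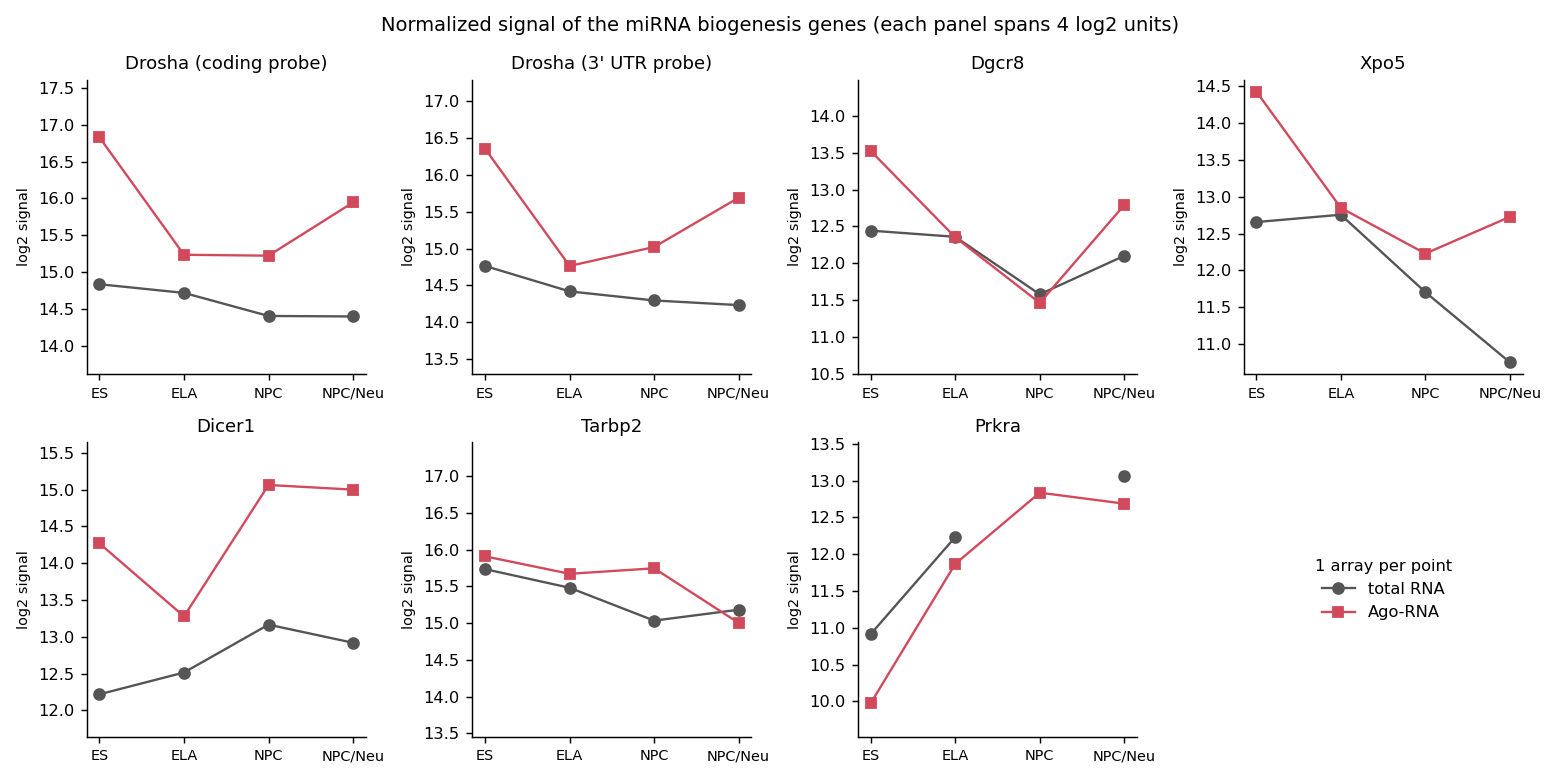
Normalized log2 signal (vertical axis) at each stage (horizontal axis) for the 7 member probes, total RNA as circles and Ago–RNA as squares, 1 array per point. Xpo5 total RNA ends at 10.75, Prkra rises from 10.92 to 13.06 (its NPC total RNA spot was left out), and the Ago–RNA of Drosha, Dgcr8 and Xpo5 drops from ES to ELA while their total RNA changes by at most 0.35.

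Changes of 2-fold or more, 1 on the log2 scale, were counted beside the share of all detected probes, and with 6 or 7 member probes nothing about the members is read from these counts. From ES to ELA, 1 of 7 probes was higher (Prkra) and none lower, where 4.19% of all detected probes were higher and 4.42% lower. From ELA to NPC, 1 of 6 was lower (Xpo5) and none higher, beside 9.12% and 9.95% of all probes. From NPC to NPC/Neu none of the 6 probes passed 2-fold, beside 5.87% higher and 4.11% lower. Over the whole course, from ES to NPC/Neu, Prkra was higher and Xpo5 lower, beside 16.1% and 15.6% of all probes. The median of the members was -0.44 for the whole course, against -0.05 for all detected probes. Scaling to the 75th percentile in place of quantile normalization took both Drosha probes (-1.13 and -1.12) and Tarbp2 (-1.37) past 2-fold lower over the whole course. The median of all probes was then -0.20.

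The second question is how much of each mRNA was with Ago. Ago enrichment, E, is the log2 signal of Ago–RNA less that of total RNA at the same stage. Since both kinds of array were normalized to the same distribution, E tells whether an mRNA was more prominent in Ago–RNA than in total RNA, not which fraction of its molecules was bound.

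In ES cells the mRNAs of the 2 RNase III enzymes were more prominent in Ago–RNA than in total RNA. Drosha read 16.83 in Ago–RNA against 14.83 in total RNA at the coding probe, an E of 2.00, and 16.36 against 14.76 at the 3′ UTR probe, an E of 1.59. Dicer1 read 14.27 against 12.22, an E of 2.05. These E values were above those of 99.1%, 97.0% and 99.2% of the detected probes. Scaled to the 75th percentile, E was lower at Drosha, 1.21 and 1.02, and was 2.06 for Dicer1. The median E of all detected probes was then -0.30, against 0.04 in the main values.

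Xpo5 stood with them in ES cells, at 14.43 in Ago–RNA against 12.66 in total RNA and an E of 1.77, above 98.2% of the detected probes. Dgcr8, whose mRNA is known to carry hairpins that the Microprocessor itself cuts, had an E of 1.08 (13.53 against 12.44), above 89.9%. The dsRNA-binding partners of Dicer1 were not of this kind. Tarbp2 had an E of 0.17 (15.91 against 15.73), which is within the noise between spots. Prkra was depleted from Ago–RNA, with an E of -0.94 (9.98 against 10.92), and only 13.3% of detected probes lay below it. Counted at 2-fold, 5 of 7 member probes were higher in Ago–RNA in ES cells and none lower, beside 11.9% and 12.2% of all detected probes, and the members' median E was 1.59 against 0.04.

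In ELA cells no member reached 2-fold, though Dicer1 was at 1.24 when each kind of RNA was normalized by itself. E was 0.52 and 0.35 at the Drosha probes (15.23 and 14.76 in Ago–RNA), -0.01 for Dgcr8 (12.35) and 0.09 for Xpo5 (12.85). Dicer1 kept the highest value, 0.76 (13.28), while Tarbp2 was at 0.19 (15.67) and Prkra at -0.37 (11.87). The E values of Dgcr8, Xpo5 and Tarbp2 were within the noise between spots of 0. Of all detected probes, 4.6% were 2-fold higher and 3.13% lower in Ago–RNA at this stage, and the members' median E was 0.19 against -0.02.

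In NPC cells Dicer1 was again high, with 15.06 in Ago–RNA against 13.16 in total RNA and an E of 1.90, and it was the only 1 of 6 member probes past 2-fold, beside 6.27% of all probes higher and 6.91% lower. With each kind of RNA normalized by itself, 3 probes were past it, Dicer1 at 2.29 and those of Drosha at 1.18 and 1.10. The Drosha probes were at 0.82 and 0.73 (15.22 and 15.02 in Ago–RNA), Tarbp2 at 0.71 (15.74), its highest value of the 4 stages, and Xpo5 at 0.52 (12.23). Dgcr8 was at -0.12 (11.46). Of the 4 members enriched 2-fold in ES cells, Dicer1 was the one whose E was back near its ES level at 6 DIV.

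In NPC/Neu cells, E was 2.08 for Dicer1 (15.00 in Ago–RNA), 1.98 for Xpo5 (12.73), 1.55 and 1.46 for Drosha (15.95 and 15.69) and 0.69 for Dgcr8 (12.79). Tarbp2 was at -0.18 (15.00), within the noise between spots, and Prkra at -0.38 (12.69). When each kind of RNA was normalized by itself, Prkra turned to 0.11 both here and in ELA, and Dgcr8 reached 1.17 here. The order of genes thus resembled that in ES cells, with both RNase III enzymes and Xpo5 at the top, Dgcr8 next and the dsRNA-binding partners lowest. By count, 4 of 7 probes were 2-fold higher and none lower, beside 13.4% and 12.4% of all probes, with a median of 1.46 against 0.09.

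**Figure D2:**
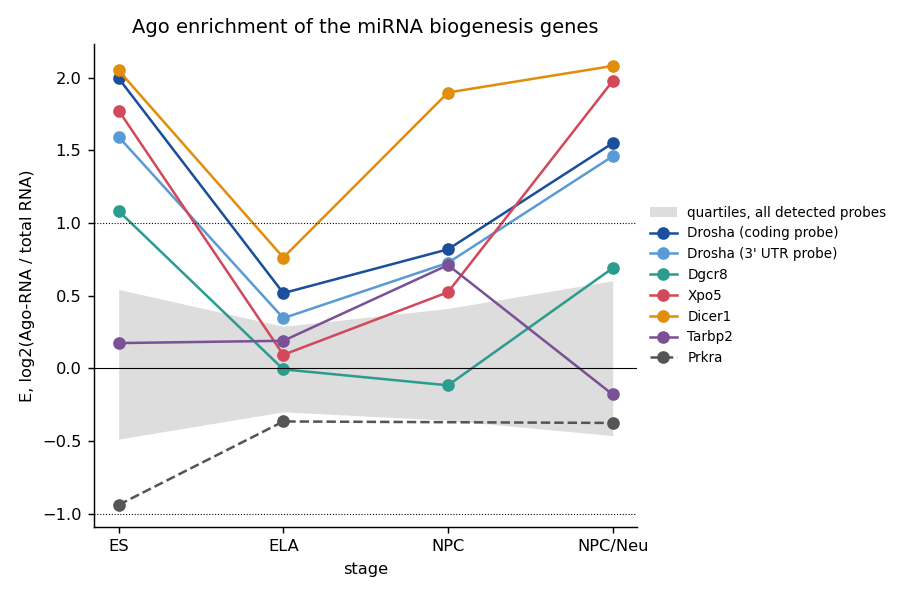
Ago enrichment E (vertical axis, log2 of Ago–RNA over total RNA) at the 4 stages for the 7 member probes, with the quartiles of all detected probes in grey and 2-fold as dotted lines; the dashed line spans the stage at which Prkra has no value. Drosha, Xpo5 and Dgcr8 are high in ES, near 0 to 0.52 in ELA and higher again in NPC/Neu, Dicer1 is back at 1.90 in NPC, and Tarbp2 and Prkra stay below 1 throughout.

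Over the 4 stages together, Ago–RNA was tested against total RNA with limma, with the stage as a block and Benjamini-Hochberg adjustment over the 24621 probes above background on all 8 arrays. The stages then stand in for replicates, so that a change of E between stages counts as error. The mean E was 1.70 ± 0.24 (SE) for Dicer1 (limma adjusted p = 0.00456), 1.22 ± 0.26 and 1.03 ± 0.24 at the coding and 3′ UTR probes of Drosha (limma adjusted p = 0.0119 and 0.0154) and 1.09 ± 0.32 for Xpo5 (limma adjusted p = 0.035). These 4 probes of 7 were called higher in Ago–RNA and none lower, beside 18.4% and 17.1% of all probes. Dgcr8 had a mean E of 0.41 ± 0.23 (limma adjusted p = 0.193), Tarbp2 0.22 ± 0.18 (0.366) and Prkra -0.56 ± 0.21 (0.0748), the last over 3 stages, without its NPC total RNA spot. With a stage left out, Dicer1 passed each time (limma adjusted p at most 0.0275). The calls of Drosha and Xpo5 depended on single stages: 2 probes were called without ES (Dicer1 and the coding probe of Drosha), 3 without NPC (not Xpo5) and 1 without NPC/Neu (Dicer1). Without the block no member probe was called (Dicer1, limma adjusted p = 0.0636). The fit was added after the values were seen.

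The third question is what changed between consecutive stages, given as ΔE, the difference of E. From ES to ELA, ΔE was -1.68 for Xpo5, -1.48 and -1.25 for the Drosha probes, -1.29 for Dicer1 and -1.09 for Dgcr8. It was 0.02 for Tarbp2 and 0.57 for Prkra. Hence 5 of 7 probes, for 4 of the 6 genes, were 2-fold or more lower and none was higher, beside 7.04% and 9.11% of all detected probes, and the members' median was -1.25 against -0.01 for all.

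The change lay in the Ago–RNA. From ES to ELA the Ago–RNA signal changed by -1.60 and -1.59 at the Drosha probes, -1.58 for Xpo5, -1.17 for Dgcr8 and -0.99 for Dicer1, whereas the total RNA of these 4 genes changed by -0.35 to 0.30. Among Ago–RNA signals, 4 of 7 member probes were 2-fold lower and 1 higher, beside 9.75% and 11.0% of all probes. The probe that was higher was that of Prkra, whose Ago–RNA gained 1.89 where its total RNA gained 1.32. The ES Ago–RNA array was also the one with the brightest raw signal, and the part of this in the ES values was not tested. Scaled to the 75th percentile, ΔE was -0.82 and -0.75 at the Drosha probes but -1.65 for Xpo5, -1.26 for Dicer1 and -1.13 for Dgcr8, and the median of all probes was 0.14.

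None of the members met the criteria by which the study's methods call an mRNA released from Ago, which are an E of 2 or more before and of 0.5 or less after, a ΔE of 1.5 or more in size, and a signal in Ago–RNA that passed the binding threshold. Few probes did: 0.394% of the detected ones from ES to ELA, 0.0782% from ELA to NPC and 0.0258% from NPC to NPC/Neu. For some later analyses the methods relaxed the limit of 0.5, and that relaxed limit was not applied here. The members nearest to the limits above missed by little. The coding probe of Drosha went from an E of 2.00 (1.995 before rounding) to 0.52 with a ΔE of -1.48, Dicer1 started at 2.05 but kept 0.76, and Xpo5 had the change (-1.68) and the low end (0.09) but started from 1.77. None met the reverse criteria for loading at any transition either, beside 0.146%, 0.0235% and 0.0479% of the detected probes in the same order. Xpo5 came near them from NPC to NPC/Neu, with an E of 0.52 before and 1.98 after and a ΔE of 1.45.

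From ELA to NPC, Dicer1 had a ΔE of 1.14, the 1 member of 6 past 2-fold, beside 1.8% of all probes higher and 3.75% lower. Its Ago–RNA rose by 1.79 and its total RNA by 0.65, and it was the 1 probe of 7 that was 2-fold higher in Ago–RNA, with none lower, beside 10.9% and 9.96% of all probes. ΔE was 0.52 for Tarbp2, 0.43 for Xpo5, 0.30 and 0.38 for the Drosha probes and -0.11 for Dgcr8, the last within the noise between spots.

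From NPC to NPC/Neu, the probe past 2-fold was that of Xpo5, with a ΔE of 1.45, beside 2.49% of all probes higher and 4.53% lower. Its total RNA fell by 0.95 while its Ago–RNA rose by 0.50. The mRNA thus grew less prominent in total RNA and more prominent in Ago–RNA at the same step, and the fall in total RNA is itself part of this ΔE. Dgcr8 had a ΔE of 0.81 and both Drosha probes 0.73. In Ago–RNA alone, Dgcr8 was the 1 probe of 7 past 2-fold (1.33), with none lower, beside 8.57% and 8.42% of all probes. Dicer1 was at 0.18, within the noise between spots, and Tarbp2 at -0.89. These transitions share arrays, so that a high value at one stage enters the change before it and the change after it with opposite signs.

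**Figure D3:**
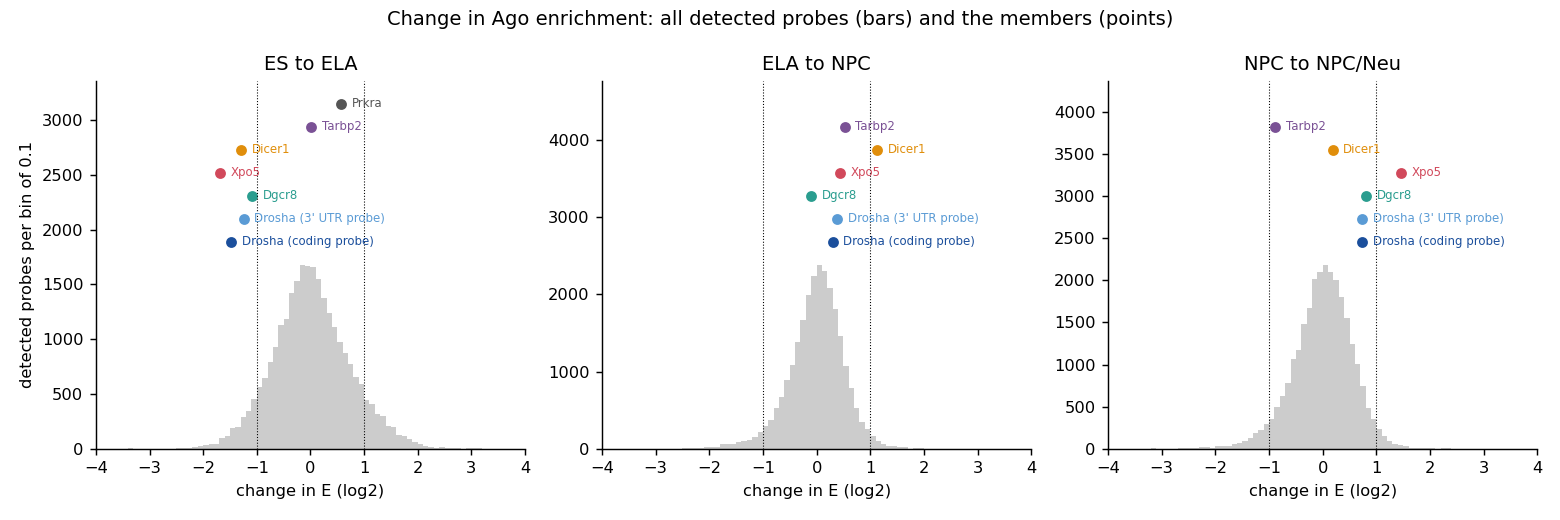
Change in Ago enrichment, ΔE (horizontal axis, log2), at the 3 transitions, with all detected probes as bars (vertical axis, probes per bin of 0.1; values past 4 are drawn at the edge) and the members as points placed above them for reading. From ES to ELA, 5 of 7 member probes lie left of -1, whereas later Dicer1 (1.14) and then Xpo5 (1.45) lie right of 1.

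The members also share the length of their mRNA in part. The transcripts of Dicer1 (9851 bases), Drosha (4570), Dgcr8 (4522) and Xpo5 (3709) are long, and those of Prkra (1614) and Tarbp2 (1523) are short. Over all detected probes that matched a coding transcript, E in ES cells went with length. It had a median of 0.72 at transcripts of 3500 bases or more, of which 33.9% were 2-fold higher in Ago–RNA, and a median of -0.35 at transcripts under 2000 bases, of which 1.36% were. The 4 long members, at 1.08 to 2.05, lay above the median of the long transcripts, and of the short ones Tarbp2 (0.17) lay above and Prkra (-0.94) below the median of the short. In ELA the medians of the same classes were 0.24 and -0.18, and in NPC 0.39 and -0.13. In NPC/Neu they were 0.66 and -0.25, with 33.0% of the long transcripts and 2.82% of the short ones 2-fold higher. For ΔE from ES to ELA they were -0.41 and 0.31, with 16.9% of the long transcripts and 1.41% of the short ones 2-fold lower. The split between the enzymes and exporter on one side and the dsRNA-binding partners on the other was thus also seen between long and short mRNAs at large, and the part of length in the members' values was not tested.

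The 2 Drosha probes read neighbouring stretches of the same exon and gave the same course. Their E values differed by 0.40 in ES, where the SD of the noise between spots was 0.30 for such a difference. They differed by 0.17 in ELA and 0.09 at the later stages, with the coding probe higher each time. Scaled to the 75th percentile, the ES values were closer, at 1.21 and 1.02. In NPC/Neu the 3′ UTR probe was then the higher, at 1.46 against 1.44.

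A wider list of 38 genes around miRNA processing, in 5 roles, puts the members in context. All 38 had probes, and a gene was counted only where all its detected probes passed 2-fold. In ES cells 13 genes were enriched in Ago–RNA and none depleted, with a median E over genes of 0.95, where 11.9% and 12.2% of all detected probes were past 2-fold and their median was 0.04. At the ELA stage 1 gene (Lin28b) was enriched and none depleted, with a median of 0.09, beside 4.6% and 3.13% of all probes and -0.02. In NPC cells 4 were enriched and 2 depleted, with a median of 0.21, beside 6.27%, 6.91% and 0.06. At NPC/Neu 9 were enriched and 1 depleted, with a median of 0.58, beside 13.4%, 12.4% and 0.09. From ES to ELA, 7 genes had a ΔE 2-fold or more lower and none higher, with a median of -0.68, beside 7.04% and 9.11% of all probes and a median of -0.01.

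By role, the Microprocessor cofactors were mixed. Ddx17, an RNA helicase, went from an E of 1.70 in ES to -0.19 in ELA. Hnrnpa2b1 was depleted, at -1.34 and -1.50 at its probes in NPC/Neu. In the Ran system that works with Xpo5, Rangap1, which helps Ran to hydrolyse GTP, went from 1.72 to -0.25, and its exchange factor Rcc1 lost 1.11 of its total RNA from ES to NPC/Neu.

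Among dsRNA-editing and dsRNA-binding genes, the helicase Dhx9 was at 1.10 in ES and 2.25 in NPC/Neu, the editing enzyme Adar had E values of 1.75 and 1.31 at its probes in ES, and Adarb1 gained 1.19 in total RNA over the course. Of the genes of Ago loading, the nuclease Snd1 went from an E of 2.24 in ES to 0.31 in ELA, Hsp90ab1 was at 1.04 in ES, and the co-chaperone Fkbp4 lost 1.28 in total RNA. The largest total RNA changes were in the control of let-7. Lin28a, which blocks let-7 processing, fell by 3.12 from ES to NPC/Neu, Trim71, itself a target of let-7, fell by 2.42 and 2.81 at its probes, and the uridylyl transferase Zcchc11 rose by 2.03 and 1.25. Lin28b, of the same role, changed by 0.43 and -0.30 at its probes over this course, after gains of 0.89 and 0.61 from ELA to NPC.

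**Figure D4:**
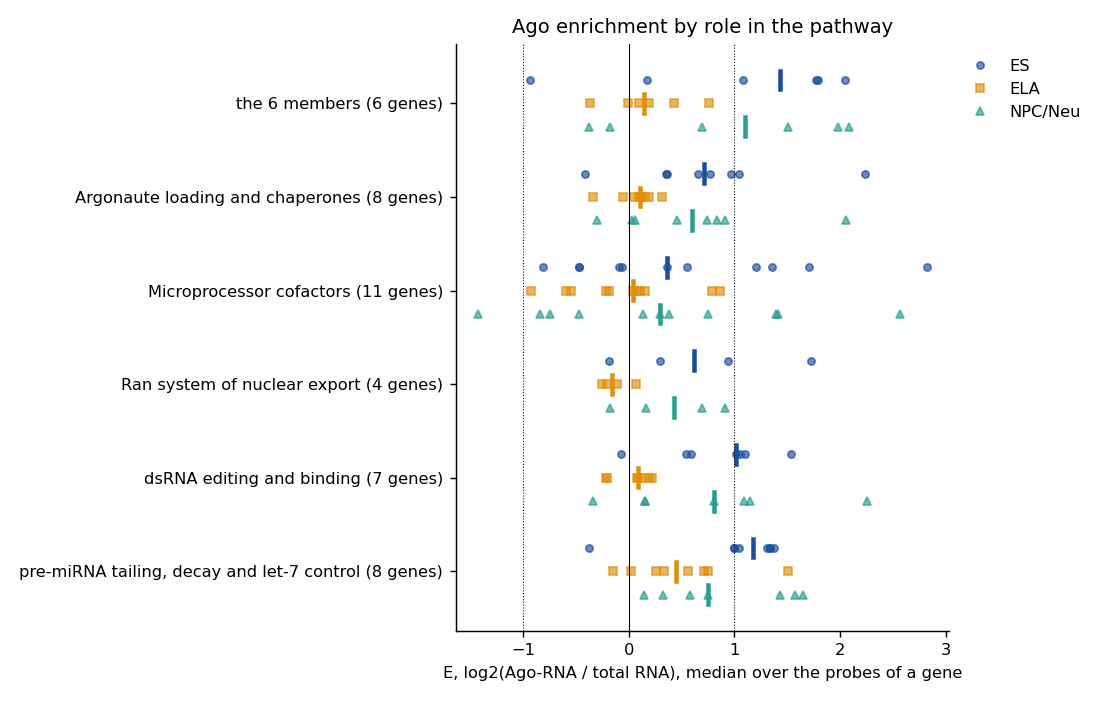
Ago enrichment E (horizontal axis, log2, median over a gene's probes) of the 6 members and of 38 further genes by role (vertical axis), in ES, ELA and NPC/Neu, with 1 point per gene and a bar at the median of each role. The medians are higher in ES and NPC/Neu than in ELA in all 6 groups, and the points of the 6 members spread from -0.94 to 2.05 in ES.

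The genes whose signals were closest in shape over the 8 arrays, by the root mean square difference after centring each probe (log2), were searched among 24391 to 24413 probes with a gene name that were above background throughout. They were Zfp622 (0.11) and Mcm7 (0.12) for Drosha, Trim24 (0.07) and Tmem131 (0.16) for Dgcr8, Pwp2 (0.19) and Actn1 (0.20) for Xpo5, Lrba (0.18) and Crocc (0.22) for Dicer1, and Nr1h2 (0.13) and C130074G19Rik (0.14) for Tarbp2. For Prkra, over 7 arrays, they were the neuronal enolase Eno2 (0.18) and H2afv (0.19). None of these was a member or one of the 38 genes of the wider list.

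**Figure D5:**
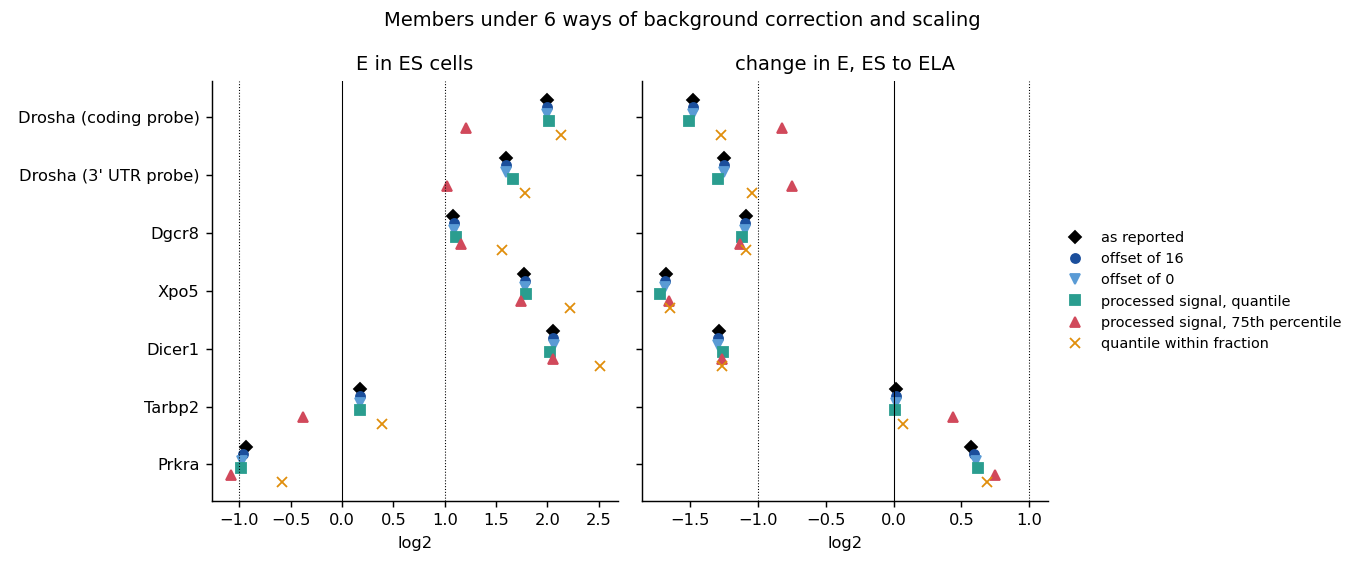
E in ES cells and ΔE from ES to ELA (horizontal axes, log2) for each member probe (vertical axis) under 6 ways of background correction and scaling, with 2-fold as dotted lines. Drosha moves most under scaling to the 75th percentile, to an E of 1.21 and 1.02 and a ΔE of -0.82 and -0.75, while Xpo5 keeps a ΔE of -1.72 to -1.65.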

How the data were processed

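The authors deposited spot intensity as Feature Extraction 10.7.3.1 wrote it, per the file headers (the submitters' notes name version 9.1), not normalized between arrays. RNA was pooled before hybridization. The study's methods state background correction and quantile normalization with limma, without an offset. Here mean intensity was corrected with normexp (offset 50; limma 3.58.1, R 4.3.3), irregular spots (125 to 523 of 59305 per array) were left out, and log2 values were quantile normalized over 8 arrays and averaged by probe. For the binding threshold, 2 Gaussian components were fitted to each Ago–RNA array (mclust 6.1.1), and 3 SD were added to the mean of the lower one. Detected means well above background on every array compared. The scripts were tested on simulated data. Other values used Python 3.11.15, pandas 2.3.3, numpy 2.4.6 and matplotlib 3.10.9. Probes were matched to GENCODE vM1 transcripts of mm9, the build of the arrays' annotation; of several transcripts, the one with the longest coding sequence was taken.

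The number of arrays limits the precision, and with 1 array per condition no change between stages can be tested. Ago–RNA was tested against total RNA over the 4 stages with limma (stage as a block, 3 residual degrees of freedom), a fit added after seeing the data. The members and gene lists were chosen with earlier results of these data known. The text names every member probe, from the wider list at most 3 genes a role with all probes past 2-fold, in order of size (1 of these genes is not reported here), the stage markers, and the 2 closest profiles of each member. As alternatives, the offset was set to 16 or 0, the software's processed intensity was quantile normalized or scaled to the 75th percentile, each kind of RNA was normalized by itself, and only probes above background were kept. Irregular spots kept, and all alternatives for ES to NPC/Neu, were added after seeing the data.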

Additional observations from a re-analysis of the deposited data

How the results depend on the processing

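Setting the offset to 16 or 0 moved no median or count of the members beyond the noise between spots or 1.5 times. Quantile normalizing the processed intensity moved none beyond these limits either. Keeping only probes above background could not change the members' values, because every member probe was well above background on every array. That alternative is therefore no check on them. Scaling to the 75th percentile gave a median total RNA change of -0.73 from ELA to NPC and -1.12 from ES to NPC/Neu (4 probes lower). It also gave a median E of 1.16 in ES (1 probe lower, Prkra at -1.08) and a median ΔE of -0.82 from ES to ELA (3 probes lower). The medians of all detected probes were then -0.20, -0.20, -0.30 and 0.14 in the same order, against -0.05, -0.05, 0.04 and -0.01 in the main values. Normalization within each kind of RNA gave a median E of 0.58 in ELA (1 probe higher) and 1.05 in NPC (3 higher, Dicer1 and both Drosha probes). In NPC/Neu it gave 1.80, with 5 probes higher, Dgcr8 among them at 1.17. It raised the median E of all probes to between 0.16 and 0.23. With irregular spots kept, a choice made after seeing the data, only Prkra moved: 1 probe was higher from ELA to NPC and 1 lower from NPC to NPC/Neu in total RNA, 1 lower for E in NPC, 1 lower for ΔE from ELA to NPC and 2 higher from NPC to NPC/Neu. Each of these comparisons uses the NPC total RNA spot of Prkra, with a raw signal of 380621, which the main values leave out. What made that spot irregular was not tested. No direction of a member past 2-fold reversed, and none met the release or loading criteria, with the limit of 0.5, under any alternative. That limit alone kept out Xpo5 from ES to ELA when each kind of RNA was normalized by itself (E of 2.22 and 0.58, ΔE of -1.65). It alone also kept out the coding probe of Drosha when the processed intensity was quantile normalized (E of 2.02 and 0.51, ΔE of -1.50). In the limma fit over the 4 stages, 4 member probes were called higher in Ago–RNA with the stage as a replicate block, 0 without it (3 at an unadjusted p under 0.05; Dicer1 had the lowest limma adjusted p, 0.0636), 1 to 4 with a stage left out, and 4 or 5 under the other alternatives run on it; none was called lower.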
